A study of Mus musculus with 4 samples.

Results

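In adipocyte nuclei from perigonadal (visceral) fat, 536 BCL6 peaks of 13 or more sequenced tags had no counterpart among the BCL6 peaks of inguinal (subcutaneous) fat. They are 13.5% of the 3956 peaks of the perigonadal list, and the lists of both depots together hold 5741 peaks. A peak was included if it rested on 13 or more sequenced tags, which is a score of 11.5 or more, and if it overlapped no peak of the inguinal list by 1 bp or more. Score and overlap therefore chose these peaks, and both are given below as descriptions. Position, repeat content, neighbouring genes and sequence were not used to choose them.

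The peaks came from chromatin immunoprecipitation followed by sequencing in C57BL/6 mice of the genotype Adipoq-Cre;Sun1-sfGFP-myc. Adipoq-Cre acts in adipocytes and switches on a tagged protein of the nuclear membrane, so that adipocyte nuclei could be taken out of minced, crosslinked fat with beads against the myc epitope. Inguinal and perigonadal fat came from the same genotype, with Bcl6 intact and no treatment named, and each depot had 1 BCL6 library, made with a custom guinea pig antibody, and 1 input library. The age and number of the animals behind a library and any pooling of tissue are not stated in the sources used here. The 2 input libraries were not analysed here. With 1 library a depot, variation between animals was not measured, and no p-value is given anywhere. A peak missing from the inguinal list was not called there, and what its inguinal signal was is not known. The lowest score in the inguinal list was 6.77 (9 tags), and perigonadal peaks without partner went down to 5.29 (6 tags).

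BCL6 is a zinc finger repressor with a POZ domain that recruits the corepressors NCOR, SMRT and BCOR, and through them histone deacetylases. It is best known as the factor that holds germinal centre B cells in their programme, where it keeps a broad set of response genes silent. Its DNA site resembles that of the STAT factors, and in liver it occupies many sites at which STAT5 can bind after growth hormone signalling. In fat it has been studied for its part in lipid storage and insulin sensitivity.

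Peaks that reach into an annotated promoter window are the ones whose sequence could be read here. Among the 536 peaks, 25 touched the promoter window of at least 1 RefSeq gene (GRCm38.p6; 250 bases before to 50 after the start), 28 windows in all. Windows touched by the same peak can share bases, so intervals for shares of windows can be too narrow. The 28 windows were searched on both strands for 21 motifs, of which a pair is marked in the sequences. The first is TTCNNNGAA, the 9-letter palindrome that BCL6 and STAT proteins share. The second, TTCCTAG, is a shorter core from the left part of the BCL6 consensus that can overlap the first, and it was added after these sequences had been read. The sequences below are shown because they carry those letters inside the peak, and the last because it lies under the tallest promoter peak and carries neither. Each is the stretch of the promoter window covered by the peak, up to 30 bases past the start site, 5′ to 3′ on the strand of the gene, with the matching letters in capitals (CTAGGAA is TTCCTAG read on the other strand).

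Zfp113: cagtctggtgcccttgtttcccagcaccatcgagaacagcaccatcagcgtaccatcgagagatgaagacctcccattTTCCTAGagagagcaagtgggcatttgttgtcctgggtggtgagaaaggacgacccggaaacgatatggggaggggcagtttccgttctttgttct

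Rpia: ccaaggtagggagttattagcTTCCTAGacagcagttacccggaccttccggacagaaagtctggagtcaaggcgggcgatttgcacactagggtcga

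Fcor: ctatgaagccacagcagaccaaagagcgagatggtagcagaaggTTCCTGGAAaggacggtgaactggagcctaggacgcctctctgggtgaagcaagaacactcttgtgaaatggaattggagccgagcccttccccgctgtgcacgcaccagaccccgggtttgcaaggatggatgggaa

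Wdr11: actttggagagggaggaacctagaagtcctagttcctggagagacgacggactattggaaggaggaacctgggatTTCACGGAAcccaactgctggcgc

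Strip2: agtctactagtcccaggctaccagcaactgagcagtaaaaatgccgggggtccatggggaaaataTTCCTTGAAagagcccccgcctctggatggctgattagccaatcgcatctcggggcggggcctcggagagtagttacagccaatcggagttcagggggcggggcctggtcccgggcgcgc

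Notch1: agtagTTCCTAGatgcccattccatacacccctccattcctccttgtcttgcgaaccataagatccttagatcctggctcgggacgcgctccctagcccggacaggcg

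Rrn3: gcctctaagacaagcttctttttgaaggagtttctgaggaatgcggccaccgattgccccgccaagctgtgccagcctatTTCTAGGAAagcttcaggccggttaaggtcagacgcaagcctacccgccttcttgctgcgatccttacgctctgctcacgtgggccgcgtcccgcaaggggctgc

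Zpr1: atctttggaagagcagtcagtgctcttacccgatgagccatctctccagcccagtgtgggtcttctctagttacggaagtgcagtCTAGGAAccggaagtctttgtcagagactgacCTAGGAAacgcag

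Slc39a10: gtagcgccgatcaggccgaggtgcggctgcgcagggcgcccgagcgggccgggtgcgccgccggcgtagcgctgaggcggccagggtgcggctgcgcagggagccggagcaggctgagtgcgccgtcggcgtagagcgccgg

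The stretches lie at chr5:138155715-138155888 (minus strand) for Zfp113, a zinc finger gene, chr6:70792328-70792425 (minus) for Rpia, ribose 5-phosphate isomerase of the pentose phosphate pathway, and chr8:3672362-3672543 (minus) for Fcor, a corepressor of FOXO1. Those of Wdr11, a WD repeat gene, and Strip2, a gene of the striatin-interacting complex, lie at chr7:129591794-129591892 and chr6:29916805-29916989 (both plus). That of Notch1, the receptor gene, lies at chr2:26503965-26504072 (minus). Those of Rrn3, a transcription factor of RNA polymerase I, and Zpr1, a zinc finger gene, lie at chr16:13780495-13780679 and chr9:46272964-46273093 (both plus). That of Slc39a10, a zinc importer of the cell membrane, lies at chr1:46853589-46853730 (minus).

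The 9-letter core lay inside 5 of the 25 peaks (Wilson 95% interval 8.86 to 39.1%). Only the part of a peak inside a window was read, from 8 bases at Acot1 to 185 at Zfp113. Letters elsewhere in a peak were not seen. The Fcor promoter has TTCCTGGAA, 44 bp from the peak centre and 104 bases before the annotated start. The same letters occur in the peak that overlaps the promoter window of Gm52185, near Mpst, 28 bp from the centre, and this peak holds a second match, TTCTCAGAA, 3 bp from it. Wdr11 has TTCACGGAA 10 bases after its start and 13 bp from the peak centre. Strip2 has TTCCTTGAA 23 bp from the centre. Rrn3 has TTCTAGGAA 8 bp from it. The 7-letter core lay inside 6 of the 25 peaks (24.0%, 11.5 to 43.4%), at Zfp113, Rpia, Notch1, Rrn3, Zpr1 and Snrpc, a spliceosome gene. At Zpr1 it occurs at 4 and 28 bp on either side of the centre, and at Rrn3 it overlaps the 9-letter core. The 6 matches of the 9-letter core lay within 44 bp of the centre of their peak. Those of the 7-letter core lay within 28 bp, but that core was picked from these same sequences. The parts of peaks inside a window reach up to 92 bp from the centre, and match positions were not compared with those in other peaks.

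Counted by length, the covered 3.24 kb held 1.85 of the 9-letter cores per kb, where all 32851 promoter windows held 0.293 per kb. For the 7-letter core the values were 2.16 and 0.160 per kb, but that core was picked from these same sequences, so its density is a description with no bearing beyond them. Over whole windows of 300 bases, 6 of 28 (21.4%) held the 9-letter core against 8.30% of all promoter windows. Perigonadal peaks with an inguinal partner and 13 or more tags held the 9-letter core in 7 of 19 cases (36.8%, 19.1 to 59.0%). The low perigonadal peaks without partner, those of 12 or fewer tags, held it in 7 of 57 (12.3%, 6.08 to 23.2%). These intervals overlap, so at this number of promoters the peaks without and with a partner could not be told apart. Peaks with a partner were also taller as a set (median 22 tags against 15), and motif shares were not compared by height. The low peaks held 1.35 of the 9-letter cores per kb covered and the peaks with a partner 3.48 per kb. GGGCGG, the GC box of CpG-rich promoters, was present in 18 of 28 windows (64.3%, 45.8 to 79.3%), in 66.7% of the windows under peaks with a partner and in 35.7% of all. CCAAT was present in 35.7% and in 37.4% of all. Narrower forms of the BCL6 site were present in 6 windows (TTCCNNGAA, 21.4%, against 4.81% of all) and 2 windows (TTCCNGGAA, 7.14%, against 1.15%), and both lie within matches of the 9-letter core. AGGTCA, bound by nuclear receptors, was present in 7 of 28 (12.7 to 43.4%, against 16.3% of all) and ACTACAA, the ZNF143 core, in 4 (14.3%, 5.70 to 31.5%, against 3.24%). Under peaks with a partner ACTACAA was in 1 of 21 windows (4.76%, 0.846 to 22.7%), and these intervals overlap. It was in 4.48% of the windows under low perigonadal peaks. The C/EBP letters TTGCNNAA, the AP-1 letters TGANTCA and the ETS letters CCGGAAGT were in 2 windows each (7.14%), against 10.8%, 7.81% and 3.89% of all. TTGGCA (NFI), CACGTG (E-box), TTANNTAA (D-box) and TGACGTCA (CRE) were in 1 window each (3.57%), against 14.1%, 7.15%, 6.00% and 1.79%. The longer motifs of PPAR-RXR, the glucocorticoid receptor, NFI, NRF1, CTCF and YY1 were in 0 of 28 windows and in under 1% of all. A match is a string of letters, and the windows without one say nothing about the factor there.

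**Figure D1:**
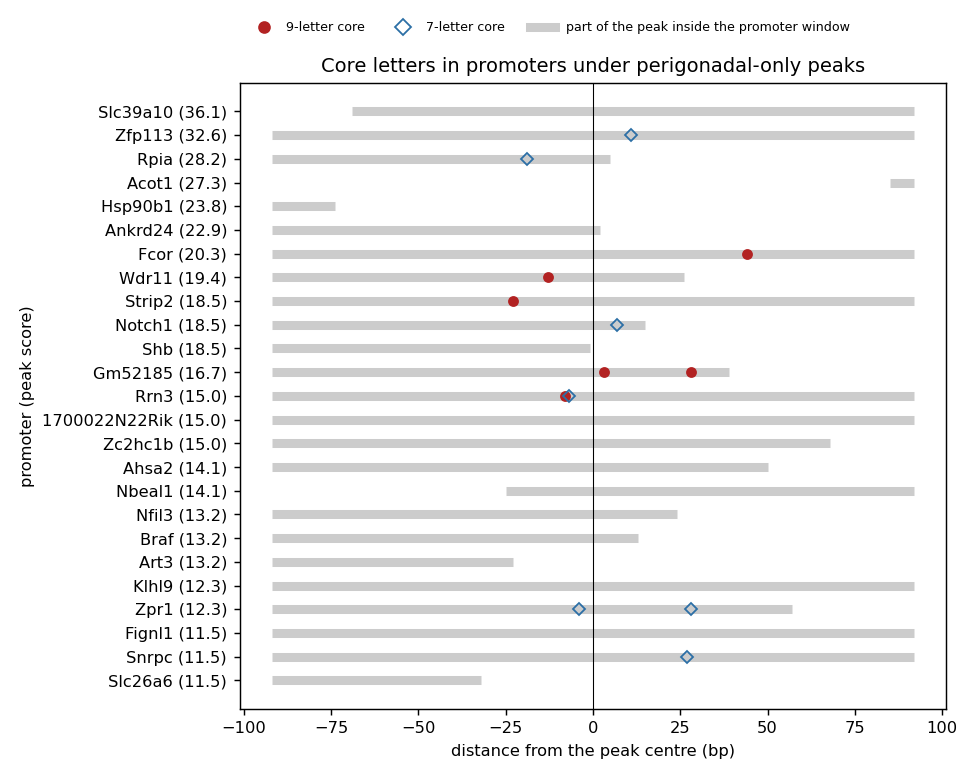
Each row is a peak without partner that touches a promoter window, named by the window that holds most of it (peak score in brackets), the grey bar is the part of the peak inside that window, and the x axis is the distance from the peak centre in bp. Red points mark the 9-letter core and blue diamonds the 7-letter core, which was picked from these same sequences. All of them lie within 44 bp of the centre, and 15 of the 25 rows hold none.

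The peaks were of modest height. The lowest scored 11.5, the median was 13.2 (15 tags), the quartiles were 12.3 and 16.7, and the highest was 45.0. The 414 perigonadal peaks of 13 or more tags that did overlap an inguinal peak had a median of 19.4 (22 tags) and reached 260. The tallest peak without partner ranked 35 in the perigonadal list. By tags, 51.9% of the 536 peaks rested on 13 to 15, 25.6% on 16 to 19, 18.3% on 20 to 29 and 4.29% on 30 or more. Just inside the limit used to choose the peaks were 124 of 13 tags with a score of 11.5, such as those nearest to Nabp1, Nrp2 and Alppl2. Just outside were 284 peaks of 12 tags with a score of 10.6, such as those nearest to Prex2, Mir5103 and Prss39. A peak of 15 tags has a Poisson 95% interval of 7.40 to 21.8 on the score scale, which reaches below the limit.

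The share of perigonadal peaks that lacked a partner went down with height. It was 79.9% (75.4 to 83.8%) of the 348 peaks of 13 to 15 tags, 59.1% (52.6 to 65.2%) of 232 peaks of 16 to 19 tags, 44.5% (38.1 to 51.2%) of 220 peaks of 20 to 29 tags and 15.3% (10.4 to 22.0%) of 150 taller peaks. The focus ratio, the authors' fraction that describes how tags lie around the centre, had a median of 0.833 in peaks without partner, 0.857 in those with a partner and 0.833 in low peaks. Within the band of 13 to 15 tags it was 0.824 without and 0.825 with a partner, and with 30 or more tags 0.863 and 0.884.

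**Figure D2:**
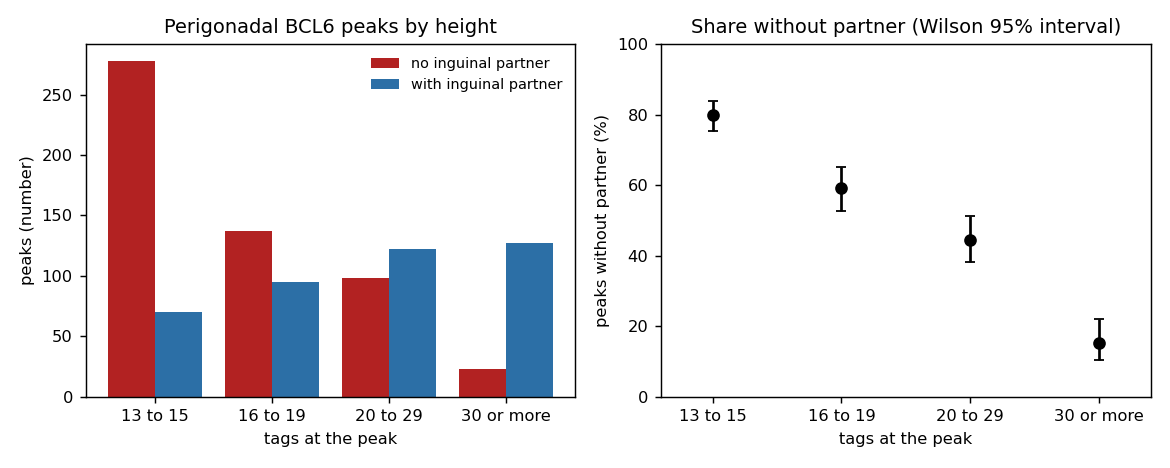
Left, the number of perigonadal peaks in 4 bands of tags, without (red) and with (blue) an inguinal partner. Right, the percent without a partner in each band with its Wilson 95% interval, which runs from 79.9% at 13 to 15 tags to 15.3% at 30 or more; score and overlap chose these peaks, so the plot describes the choice.

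The tallest peaks without partner lay at genes of varied function. The tallest was in intron 2 of 4 of D030024E09Rik, a long non-coding RNA gene, at chr15:61753953-61754137, with a score of 45.0 (Poisson 95% interval 33.5 to 59.1), and the nearest inguinal peak was 229 kb away. A group of 3 peaks followed at 36.1 (25.9 to 49.0). These lay on the promoter of Slc39a10 (chr1:46853546-46853730), whose sequence is printed above and whose nearest inguinal peak was 2277 kb away, in intron 2 of 26 of Hdac4, a class IIa histone deacetylase (chr1:92137271-92137455), and 9.85 kb upstream of Bnip3, a receptor for mitophagy (chr7:138919267-138919451). The Bnip3 peak had an inguinal peak of 7.52 at a distance of 20.7 kb. The Hdac4 peak had one of 9.03, itself nearest to Hdac4, at 81.8 kb. A peak 11.1 kb from Sfxn3, a mitochondrial serine transporter gene, scored 35.3 (chr19:45058615-45058799).

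Next came peaks in intron 2 of 6 of the non-coding gene Gm31763 (chr10:67025773-67025957) and in exon 2 of 2 of Commd5, a COMM domain gene (chr15:76900669-76900853), both with 34.4. Zfp113 had 32.6 on its promoter. A peak of 31.7 at chr1:151233966-151234150, 96.0 kb from C730036E19Rik, lay in an RLTR25B element, a long terminal repeat of the ERVK family. In intron 15 of 16 of Cdkal1, a tRNA-modifying enzyme gene, a peak scored 30.9 (chr13:29232830-29233014), and its nearest promoter was that of A330102I10Rik, 217 kb away. Near 2310008N11Rik a peak scored 30.0. Peaks of 29.1 lay 117 kb upstream of Pitx1, a homeodomain factor of hindlimb development, in exon 8 of 11 of Lias, lipoic acid synthetase, and in intron 9 of 10 of Sergef.

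The peaks had no single kind of place in the genome. Introns held 46.1% of them and intergenic positions 43.1%, against 43.0% and 46.1% of the 414 perigonadal peaks with a partner. Exons held 2.24%. The first intron of a gene held 15.5% and later introns 30.6%. Of the 536, 46 (8.58%, 6.50 to 11.3%) lay within 1 kb of an annotated promoter, against 7.73% (5.53 to 10.7%) of peaks with a partner, 5.49% (4.72 to 6.38%) of low perigonadal peaks without partner and 11.3% (8.20 to 15.4%) of inguinal peaks without partner and with 13 or more tags. The interval of the 536 peaks overlaps those of peaks with a partner and of inguinal peaks, and lies above that of low peaks. Within 5 kb lay 123 peaks (22.9%, 19.6 to 26.7%), of which 62 (50.4%) were upstream of the start. The median distance to a promoter was 24.4 kb, against 25.4 kb with a partner and 32.8 kb for low peaks. The nearest promoter belonged to a gene that is not protein-coding for 87 peaks (16.2%).

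Taller peaks lay at promoters more often. Within 1 kb of a promoter were 6.83% of the peaks with 13 to 15 tags, 7.30% of those with 16 to 19, 11.2% (6.38 to 19.0%) of those with 20 to 29 and 6 of 23 (26.1%, 12.5 to 46.5%) of those with 30 or more. Peaks with a partner gave 2.86%, 6.32%, 4.10% (1.76 to 9.24%) and 15.0% in the same bands. The value without partner was the higher in all 4 bands, and the intervals overlap in each.

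**Figure D3:**
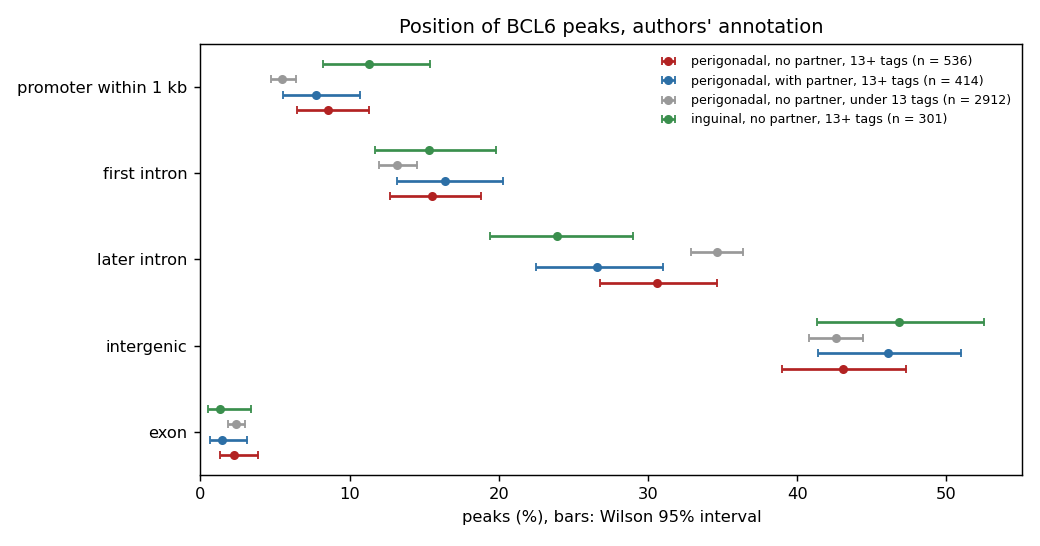
Percent of peaks (x axis) at each kind of position, with Wilson 95% intervals, for the 536 perigonadal peaks without partner (red), perigonadal peaks with a partner (blue), low perigonadal peaks without partner (grey) and inguinal peaks without partner (green). Red and blue intervals overlap at every position, and within 1 kb of a promoter the red point is at 8.58% and the grey at 5.49%.

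The 12 tallest peaks within 1 kb of a promoter were led by Slc39a10, Commd5, Zfp113 and Rpia. The Rpia peak scored 28.2 (19.3 to 39.8) at chr6:70792328-70792512, and its 7-letter core lies 19 bp from the centre. Acot1, a cytosolic acyl-CoA thioesterase that releases free fatty acids, followed with 27.3 (chr12:84009075-84009259), 49.7 kb from the nearest inguinal peak. Osbpl1a, an oxysterol-binding protein gene, had 26.4. A peak of 23.8 lay 482 bp inside Nfil3, a basic leucine zipper repressor of the clock and of immune cells. A peak of the same height at chr10:86705676-86705860 was nearest to the start of Ttc41 by distance and was annotated to the promoter of Hsp90b1, the chaperone of the endoplasmic reticulum. Dctn6 and Efr3a had 22.9 each, Anxa3, an annexin, 21.2, and Wdr11 19.4.

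Commd5 and Nfil3 each carried a second peak without partner at the start. At Commd5 the exon peak of 34.4 and a promoter peak of 14.1 were 0.754 kb apart, and at Nfil3 the intron peak of 23.8 and a promoter peak of 13.2 were 0.524 kb apart. Such closeness was uncommon: 7 pairs of these peaks were within 10 kb of each other, 52 peaks (9.70%) were within 10 kb of any other perigonadal peak, and 15 (2.80%) were within 10 kb of a perigonadal peak with a partner.

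Most of the peaks were also far from any inguinal peak. The median gap to the nearest was 239 kb, with quartiles of 90.5 and 557 kb. It was under 500 bp for 2 peaks, under 5 kb for 18 (3.36%), under 10 kb for 31 (5.78%) and under 50 kb for 102 (19.0%). Low perigonadal peaks without partner were farther away, with a median of 392 kb and 9.79% within 50 kb. Perigonadal peaks with a partner had their next inguinal peak at a median of 268 kb, with 20.8% within 50 kb. The 5 nearest cases were side-by-side peaks at the same gene. Pla2g15, a lysosomal phospholipase gene, had a perigonadal peak of 12.3 and, 207 bp on, an inguinal peak of 9.78. Eefsec, a selenocysteine elongation factor gene, had 19.4 and 13.5, 412 bp apart. The promoter region of Col22a1, a collagen gene, had 12.3 and 23.3, 539 bp apart. Hotairm1, a non-coding RNA of the HoxA cluster, had 11.5 and 20.3, 689 bp apart, and Rnf125, a ubiquitin ligase gene, 22.0 and 9.03, 944 bp apart. Scores are scaled within each list, so these pairs give no order between the depots.

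**Figure D4:**
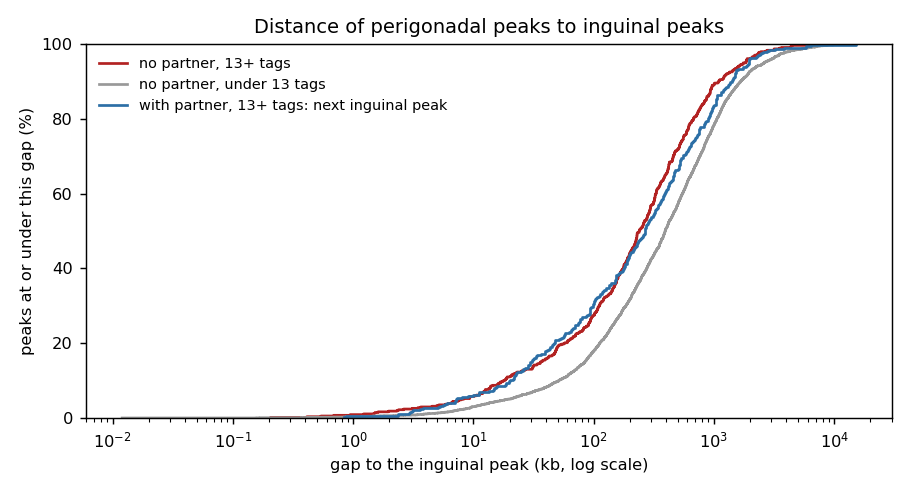
Cumulative percent of perigonadal peaks (y axis) against the gap to the nearest inguinal peak in kb (log axis), for peaks without partner and 13 or more tags (red), low peaks without partner (grey), and, for peaks with a partner, the gap to the next inguinal peak (blue). The red and blue curves run close together, with medians of 239 and 268 kb, and the grey curve lies to the right with 392 kb.

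A gene was counted as having a peak when it is protein-coding and was the nearest promoter within 50 kb. By this count 310 of 21896 protein-coding genes (1.42%) had at least 1 of the 536 peaks, 931 (4.25%) had an inguinal peak and 231 (1.05%) had a perigonadal peak with a partner. Of the 310 genes, 268 (86.5%) were the nearest promoter of no inguinal peak by this count, although an inguinal peak assigned to another gene can lie close to some of them. A gene among the 268 can also have an inguinal peak beyond 50 kb from its promoter, as Hdac4 did. The other 42 were also the nearest promoter of an inguinal peak, which is 13.5% of the 310 genes and 4.51% of the 931. A perigonadal peak with a partner was present at 12 of the 310, which is 3.87% of these and 5.19% of the 231 genes.

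Among the 42 genes, those with the tallest peaks were Bnip3, with 36.1 and an inguinal peak of 7.52, and Hic2, a zinc finger repressor gene, with 27.3 in intron 1 of 2 and an inguinal peak of 15.0 at 1.93 kb from its promoter. Osbpl1a and Slc29a1, the equilibrative nucleoside transporter, followed with 26.4 and 23.8 beside inguinal peaks of 7.52 and 18.1. Esr1, the estrogen receptor gene, had peaks without partner of 16.7 in intron 4 of 7 and 11.5 in intron 2 of 7, and also a perigonadal peak of 19.4 whose inguinal partner scored 39.9.

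Gene groups were described by how many members had a peak, beside the 1.42% of all protein-coding genes. The 22 lists were chosen with earlier results of these data known, so their counts support nothing beyond these values. Of their 404 genes, 17 (4.21%) had a peak, in 12 lists, and 10 lists had none.

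Circadian clock genes had 3 of 21 (14.3%, 4.98 to 34.6%). Per1, a period gene, had a peak of 27.3 (18.6 to 38.8) 2.02 kb upstream (chr11:69096847-69097031), Nfil3 had its pair at the start, and Nr1d1, the nuclear receptor REV-ERB alpha that silences Bmal1, had 15.9 (9.40 to 25.1) 1.58 kb upstream (chr11:98776868-98777052). None of these 3 genes had an inguinal peak within 50 kb. Over the whole list of 21, 2 genes had an inguinal peak, 1 a perigonadal peak with a partner and 3 a low perigonadal peak. The nearest inguinal peaks were 66.3 kb from the Per1 peak and 94.3 kb from the Nr1d1 peak.

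Insulin receptor signalling had 2 of 24. Cblb, a ubiquitin ligase that restrains receptor signalling, had 17.6 (10.8 to 27.2) at 2.27 kb upstream (chr16:52029182-52029366), and this peak lay inside an MT2A repeat. Ptpn1, the phosphatase PTP1B that dephosphorylates the insulin receptor, had 15.9 in intron 1 of 8 (chr2:167958862-167959046). Cytokine receptors and JAK-STAT signalling also had 2, of 27. Socs3, an inhibitor of JAK kinases induced by leptin and IL-6, had 25.6 (17.1 to 36.7) at 33.5 kb (chr11:117935760-117935944), and Lepr, the leptin receptor, had 22.0 (14.3 to 32.5) at 34.6 kb upstream (chr4:101682720-101682904). The nearest inguinal peaks were 521 and 391 kb away. Elsewhere in these lists, 4 insulin receptor signalling genes and 8 cytokine and JAK-STAT genes had an inguinal peak. A perigonadal peak with a partner was at 3 and 5 genes. Over the whole lists, a low perigonadal peak without partner was at 12 of 24 and 3 of 27 genes.

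Lipid and transport genes gave scattered single cases. Fatty acid and triglyceride synthesis had 2 of 21, the carboxylase gene Acacb with 12.3 at 3.84 kb upstream and the desaturase gene Fads1 with 11.5 at 1.52 kb upstream. Lipolysis and lipid droplet genes had 1 of 17: Prkar2b, a regulatory subunit of protein kinase A, had peaks of 17.6 and 16.7 at 47.9 and 34.0 kb upstream. Adipocyte identity genes had 1 of 20, the oxysterol receptor gene Nr1h3 with 13.2 in intron 7 of 9. Nr1h3 and Esr1 were the 2 of 27 nuclear receptor genes. Mitophagy genes had 1 of 15, Bnip3, zinc transporters 1 of 21, Slc39a10, and corepressor and histone deacetylase genes 1 of 21, Hdac4. TGF-beta and BMP signalling had 1 of 23, Smad3, with peaks of 12.3 at 36.2 and 105 kb upstream, and extracellular matrix genes 1 of 20, the laminin gene Lama4, with 13.2 in intron 1 of 37 and an inguinal peak of 9.78 within 50 kb. The Acacb, Fads1, Nr1h3, Smad3 and Lama4 peaks rested on 13 to 15 tags.

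By nearest promoter within 50 kb, no gene had one of the 536 peaks in the lists for fatty acid oxidation (0 of 18), thermogenesis (0 of 15) and NF-kappaB and inflammation (0 of 23). The last list does not hold Ikbkb, the kinase IKK beta of this pathway, which had a peak of 19.4 in intron 2 of 21. Immediate early and stress response (0 of 27) and BCL6 targets of B and T follicular helper cells (0 of 20) had none either. In the same order, 3, 2, 3, 4 and 1 genes of these lists had a low perigonadal peak without partner. A perigonadal peak with a partner was at 0, 0, 1, 2 and 1 of them, and an inguinal peak at 1, 0, 6, 4 and 4. The marker lists of other cells of fat also held none of the 536 peaks. Preadipocytes and fibroblasts had 0 of 12, macrophages 0 of 12 and lymphocytes 0 of 11. Endothelium had 0 of 12, and mesothelium and epithelium 0 of 12. These lists are short beside a background of 1.42%, and BCL6 peaks do not measure expression, so they give no check of the purity of the nuclei. When a peak inside a gene was also counted for that gene, 21 genes had one. Of the 4 added, Grb10, a negative regulator of the insulin receptor, had 11.5 in intron 4 of 16, and the matrix protease gene Mmp2 had 12.3. The others were the nuclear receptor genes Esrrg and Rarb, with 13.2 and 11.5. Esrrg is also in the thermogenesis list, so that list is empty only by the nearest-promoter count.

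Several genes drew 3 peaks at any distance. The 3 peaks nearest to Apoa1, the apolipoprotein of HDL, scored 15.9, 14.1 and 11.5, and all of them lay inside the neighbouring gene Sik3, a salt-inducible kinase, in introns 3, 21 and 11 of 24. The Zpr1 promoter peak printed above, with 12.3, lies beyond them at chr9:46272964-46273148. Nabp1 had 15.0, 14.1 and 11.5, from 36.3 to 212 kb upstream, with an inguinal peak of 27.8 at 20.4 kb from its promoter. Nrep had 19.4, 13.2 and 11.5, and Rras2, a RAS-related GTPase gene, had 16.7, 12.3 and 11.5, the taller pair in intron 6 of 15 of Spon1. Ptprm, a receptor tyrosine phosphatase gene chosen after its values were seen, held 4 peaks in its introns, of 15.0, 13.2, 11.5 and 11.5. Where a peak lay inside a gene, that gene differed from the nearest promoter in 83 of 302 cases (27.5%), against 61 of 220 (27.7%) for peaks with a partner, so in these cases the gene named for a peak depends on the rule.

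Repeats held 64 of the 536 peaks (11.9%, 9.46 to 15.0%), close to the 11.8% (9.07 to 15.3%) of peaks with a partner and under the 28.3% (26.7 to 29.9%) of low perigonadal peaks. The kinds of repeat differed more than the total. LINE elements held 8 peaks (1.49%, 0.758 to 2.92%) against 22 of 414 (5.31%, 3.54 to 7.91%) with a partner, and these intervals do not overlap. The gap was widest among peaks of 20 to 29 tags, with 1 of 98 (0.180 to 5.56%) without and 10 of 122 (8.20%, 4.51 to 14.4%) with a partner. Within each band of tags, the LINE intervals without and with a partner overlap. Among the peaks with a partner 17 were in L1 elements, of which 7 were of the old L1M5 kind. SINE elements held 21 peaks (3.92%, 2.58 to 5.92%) against 5 (1.21%, 0.517 to 2.80%). By height, the SINE shares without and with a partner were 5.76% and 4.29% at 13 to 15 tags and 2.92% and 1.05% at 16 to 19 tags. They were 1 of 98 and 0 of 122 peaks at 20 to 29 tags, and 0 of 23 and 1 of 127 at 30 or more. The intervals overlap in each band. SINE elements also held 8.96% of low perigonadal peaks and 3.65% of inguinal peaks without partner and with 13 or more tags. LTR elements held 30 peaks (5.60%, 3.95 to 7.88%) against 14 (3.38%, 2.02 to 5.60%).

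The tallest peaks in repeats were in LTR elements, led by the RLTR25B peak of 31.7. MT2A, an LTR of the ERVL family, held 4 of the 536 peaks, among them 26.4 near Tdrp, 19.4 near C630028M04Rik and 17.6 at Cblb. It held 1 of 414 peaks with a partner and 2 of 2912 low peaks. These counts are too small to compare, and the element was named after they were seen. By family the LTR peaks were 10 ERVL, 10 ERVL-MaLR, 7 ERVK and 3 ERV1. The SINE peaks included 8 of the B1 (Alu) kind, 5 MIR and 4 B2. Tags in near-identical repeat copies can be placed at the wrong copy, and how such reads were mapped is not stated in the sources used here.

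**Figure D5:**
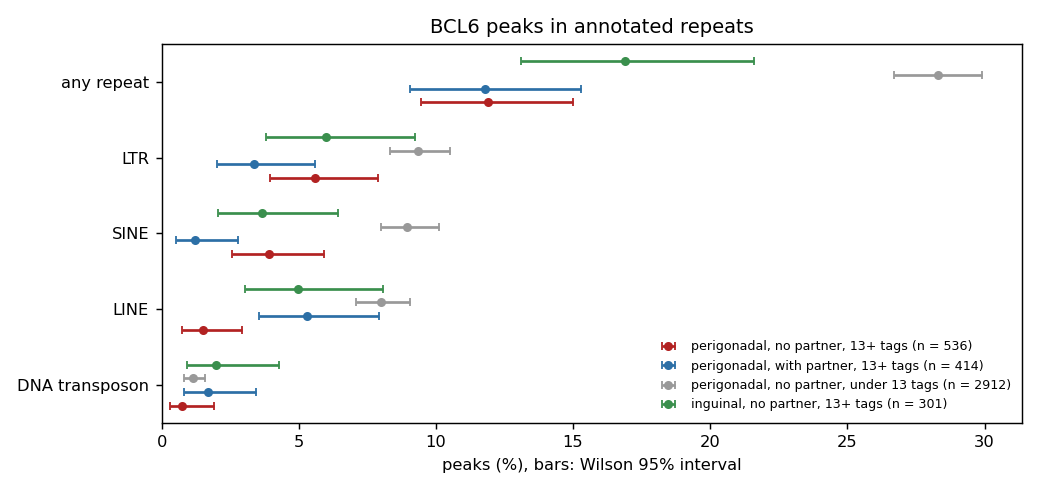
Percent of peaks (x axis) whose position the authors annotated as a repeat, in all and by class, with Wilson 95% intervals, for the same 4 sets and colours as in the plot of positions. For LINE the red interval (0.758 to 2.92%) lies below the blue one (3.54 to 7.91%), while for any repeat both points are near 12%.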

How the data were processed

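BCL6 ChIP-seq peak lists of perigonadal and inguinal adipocyte nuclei were analysed, 1 library each. The submitters' processing notes name Bowtie 1.2, HOMER and mm10. The deposited peak score, a signal scaled for library size, is the authors' value and was used within its own list. Scores were whole multiples of a step of 0.882 (perigonadal) or 0.752 (inguinal) in 100% of peaks within rounding, and a step was read as 1 tag. The sources used here do not state library depth. The deposited focus ratio is a fraction given by the authors. Distances to promoters, positions and repeats are the authors' HOMER annotations, per the file headers. The inguinal header names a false discovery rate of 0.001 and the perigonadal header no threshold, so calling may have differed.

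Peaks were 184 and 202 bp wide. Overlap was at least 1 bp. Gene types came from the RefSeq table of GRCm38.p6, matched by Entrez number (2 members unmatched), and promoter sequences from RefSeq of the same assembly. Wilson 95% intervals are given for shares and exact Poisson 95% intervals for scores, from the tags. They cover counting error only. The Poisson intervals can be too narrow, because PCR reads that carry no molecular identifier can be copies of 1 molecule. Named are the 12 tallest peaks with ties, the 12 tallest within 1 kb of a promoter, up to 4 genes a list, genes with 3 or more peaks, 3 peaks on each side of the limit and the 5 nearest to an inguinal peak; other names were chosen after their values were seen, and a few items are not reported here by name. The members and lists were chosen with earlier results of these data known. No genome was used, so the planned search of peak sequences covered promoter windows only, without the planned flanking regions. The overlap and counting code was tested on simulated data. Python 3.11.15, pandas 2.3.3 and SciPy 1.17.1 were used.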

Additional observations from a re-analysis of the deposited data

How the results depend on the processing

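Of 57 values of the main results under alternatives, 45 stayed within the spread set for them (95% interval of a share, 1.5 times for a count). With at least 16 tags the set held 258 peaks, repeats 8.91% of them, and 164 genes had a peak. With at least 20 tags it held 121 peaks, with 14.0% within 1 kb of a promoter, 9.09% in repeats, 82 genes and 9 listed genes. A promoter window of 100 bp held 1.49% of peaks and one of 5000 bp 22.9%. Within 10 kb of a promoter 147 genes and 9 listed genes had a peak. Other overlap rules gave 518 to 547 peaks, autosomes alone 532, and peaks outside repeats 472. The 7-letter core and the count by host gene were added after seeing the data. No paired analysis was possible because each depot had 1 BCL6 library, and for the same reason no library could be left out. Peaks of 13 to 15 tags, 51.9% of the set, have wide counting intervals.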

Other observations

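Some peaks without partner reach into the promoter window of a gene that is not the nearest promoter in the authors' annotation. The peak of 20.3 at chr8:3672359-3672543 is listed 4.03 kb upstream of Trappc5 and as intergenic, and contains the RefSeq start of Fcor. The peak of 18.5 at chr2:26503965-26504149 is nearest to Gm35978 and overlaps 108 bases of the window of Notch1, upstream of its start. The peak of 16.7 listed 10.2 kb from Mpst overlaps 132 bases of the window of Gm52185, also upstream. These were chosen after their values were seen.

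Bcl6 itself was the nearest promoter of 2 of the peaks, of 18.5 at 184 kb upstream (chr16:24172777-24172961) and of 11.5 at 95.6 kb upstream (chr16:24084100-24084284). Both lay close to an inguinal peak without overlapping it, at 6.16 and 6.74 kb. A pair of peaks lay upstream of Cd180, a surface receptor gene of B cells, with 25.6 at 99.8 kb and 24.7 at 246 kb, and the nearest inguinal peaks were 445 and 591 kb from them. Prkag2, a regulatory subunit of AMP-activated kinase, had 25.6 in intron 3 of 15, 954 kb from the nearest inguinal peak. Met, the receptor of hepatocyte growth factor, had 23.8 in intron 4 of 21.

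By gene name, 10 of 375 solute carrier genes (2.67%) and 6 of 397 genes named Zfp (1.51%) had a peak within 50 kb, beside 1.42% of all protein-coding genes. Chromosome X held 4 of the 536 peaks (0.746%), and 0.758% of the whole perigonadal list.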
